A study of Mus musculus with 12 samples.

Results

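The mitochondrial ribosomal protein genes of the mouse were examined in crypts of the small intestine that carried 1 or both functional copies of *Zfp148*, which encodes a zinc finger transcription factor also known as ZBP-89. They were taken by symbol, as every array row whose single annotated gene was named *Mrpl* (large subunit) or *Mrps* (small subunit) followed by a number, without pseudogenes, and the brightest row over all 12 mice stood for a gene with more than 1 row. This gave 71 genes, 43 *Mrpl* and 28 *Mrps*, of the 22180 genes that had a row of their own. A further 7 genes of the family (*Mrpl30*, *Mrpl33*, *Mrpl41*, *Mrpl43*, *Mrpl44*, *Mrpl53* and *Mrps6*) lay only in rows shared with another gene and were not analysed here. All mice carried the *APCMin/+* mutation, a truncating mutation of 1 *Apc* allele that leads to intestinal adenomas. The 6 Zfp148gt/+APCMin/+ mice (from here on Zfp148gt/+) also carried a gene-trap allele of *Zfp148*, and the 6 Zfp148+/+APCMin/+ mice served as controls. The mice were 12 weeks old and on a mixed genetic background, and both *Zfp148* and *Apc* alleles were germline, so that every cell type of the tissue carried them. RNA came from crypt-enriched normal tissue, cut out by laser microdissection from cryosections of the proximal small intestine, and was hybridised to 1 Affymetrix Gene 2.0 ST array per mouse.

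Mitochondria have their own ribosome, which translates the few proteins encoded by mitochondrial DNA, all of them core subunits of the respiratory chain and ATP synthase. Its RNAs come from mitochondrial DNA, whereas all of its proteins are encoded in the nucleus, made in the cytosol and imported. Many of these proteins have counterparts in bacterial ribosomes, and others were added during the evolution of mitochondria and lie mostly on the surface of the particle. In the intestinal crypt, mitochondrial activity has been linked to the function of stem cells and Paneth cells.

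The signal was on a log2 scale, so that a difference of 1 is a doubling. *Zfp148* itself had a log2 signal of 5.01 to 5.95 in Zfp148gt/+ mice and of 6.06 to 6.88 in controls (exact two-sided permutation test, p = 0.0022, the smallest that 6 mice against 6 allow; limma adjusted p = 0.676). All 12 epithelial and all 12 crypt markers lay above the median signal of all rows, 2.71, as did 8 of 11 villus markers and markers of fibroblasts, smooth muscle, endothelium and immune cells, so the tissue was a mixture. The array signal also differed in shape between the genotypes. The interquartile range of an array was 2.77 ± 0.09 (SD, n = 6, range 2.69 to 2.93) in Zfp148gt/+ mice and 2.92 ± 0.07 (n = 6, range 2.795 to 3.005) in controls, which differed by a two-sided exact permutation test (p = 0.0173). The mean of 12 fibroblast and matrix markers was 6.67 ± 0.29 (range 6.35 to 7.10) and 7.07 ± 0.24 (range 6.65 to 7.39) (same exact test, p = 0.0390), and all 12 of these markers were at lower values in Zfp148gt/+ mice. So were 9 of 10 smooth muscle, 10 of 12 epithelial, 6 of 8 endothelial and 8 of 12 immune markers, against 5 of 12 crypt and 5 of 11 villus markers. Of all rows above the median signal 58.4% were lower. In such mixed tissue, fewer cells of a type and less RNA per cell cannot be told apart. The interquartile range and the fibroblast marker mean thus both went with genotype. A fit with either as a covariate cannot divide a difference between that measure and genotype.

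Most mitochondrial ribosomal protein genes were well expressed. Their mean log2 signal ran from 2.38 for *Mrpl27* to 10.40 for *Mrps16* with a median of 7.07, and 70 of the 71 lay above the median of all rows. Within a genotype the SD of a gene was 0.267 in the median, from 0.112 for *Mrpl52* to 0.714 for *Mrps14*, against 0.307 for all rows above the median signal.

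No mitochondrial ribosomal protein gene differed between the genotypes after adjustment for all 33793 rows, and the smallest adjusted p among them was 0.725 (limma with Benjamini-Hochberg adjustment). None of all rows did either (0%), with a smallest adjusted p of 0.6252. Without adjustment, 6 of the 71 were lower in Zfp148gt/+ mice and 0 higher at an unadjusted limma p under 0.05. Over all rows 2.88% were lower and 3.88% higher at this level, and over rows above the median signal 5.08% and 2.41%. The share of members that were lower was 8.45%, or 7.14% (5 of 70) among the members above the median signal. A fit of only the rows above the median signal gave 4 of 70. These rows were dimmer on average than the members. Another quantile normalization turned the split of 6 lower and 0 higher into 5 lower and 3 higher, with *Mrpl28*, *Mrpl40* and *Mrps7* as the higher ones, centring the arrays on their medians turned it into 11 and 0, and a fit with the interquartile range of the array as a covariate into 1 (*Mrps15*) and 0.

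The point estimates were spread closely around a small negative value. The log2 difference, Zfp148gt/+ minus control, lay below 0 for 47 genes and above 0 for 24. Its median was -0.11, its lowest value -0.47 (*Mrps27*) and its highest 0.30 (*Mrpl40*). Of all rows above the median signal 58.4% lay below 0, with a median of -0.04, while among rows grouped by signal the medians were -0.09 to -0.03 over the range from 4.12 to 9.60, where most members lay. With the interquartile range as a covariate the median was -0.02, with 37 genes below and 34 above 0. The 95% confidence interval was 0.320 wide to each side in the median, it included 0 for 65 genes, and for 69 genes it lay wholly within a log2 difference of 1 in either direction. Doubling or halving of the array signal was therefore outside the interval of nearly every gene, the exceptions being *Mrps14* and *Mrps27*. RMA shrinks differences of dim probe sets, so for dim genes such as *Mrpl27* these intervals do not bound the mRNA. For 36 genes the interval lay within 0.5 of 0.

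**Figure D1:**
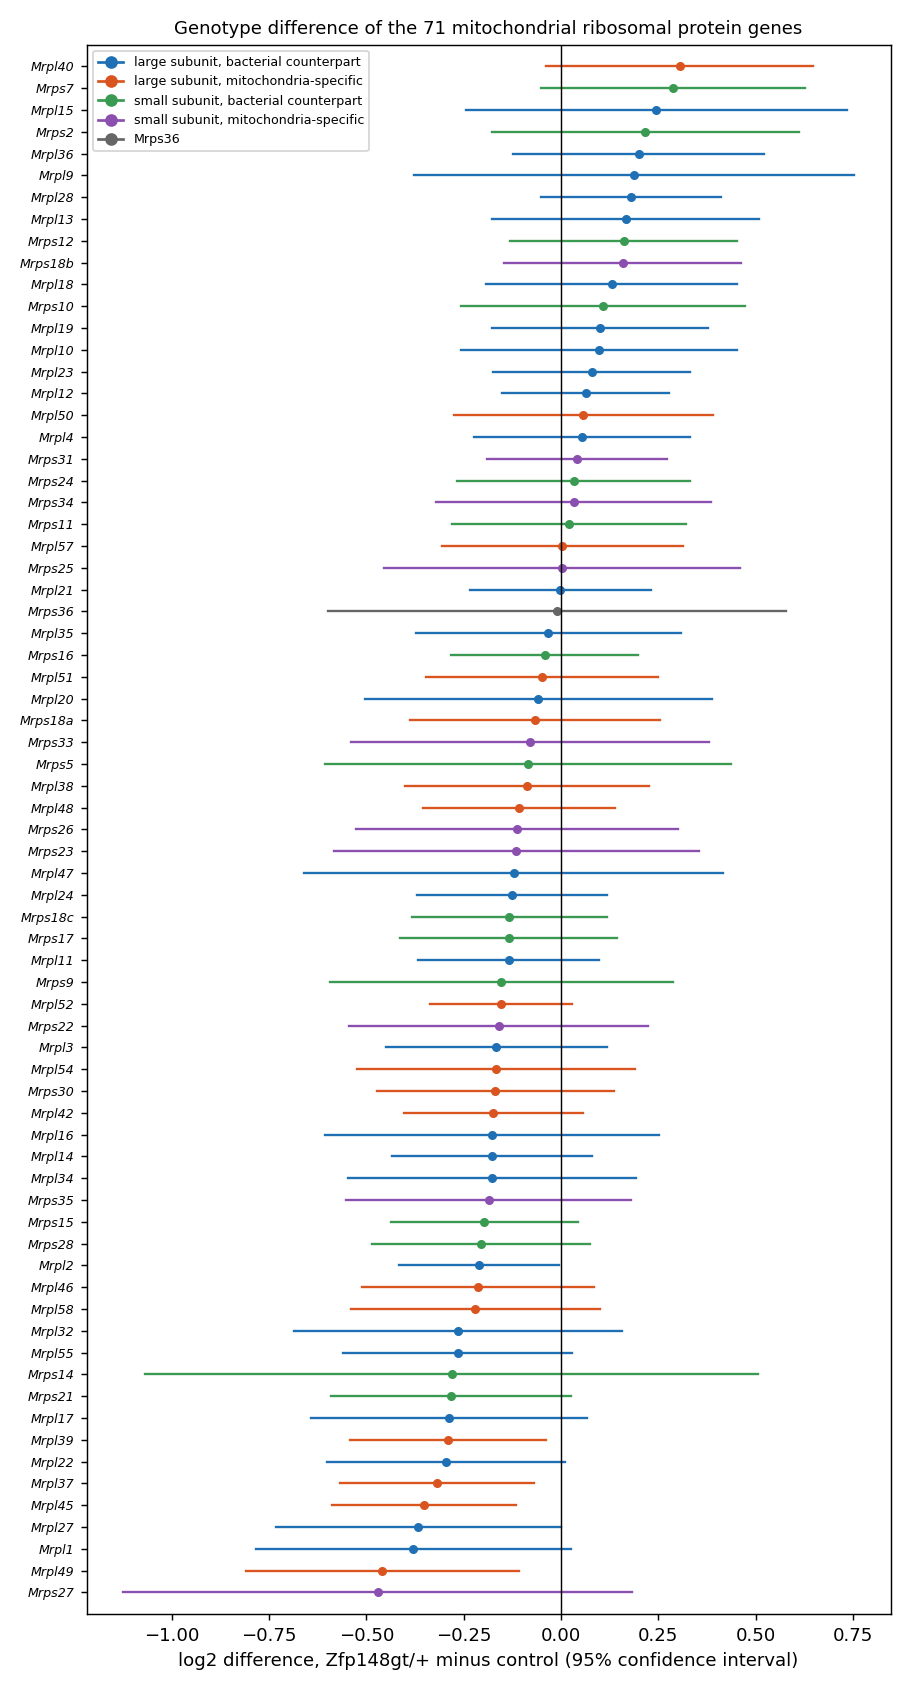
Log2 difference between Zfp148gt/+ and control mice (horizontal axis, points) with 95% confidence intervals (lines) for the 71 genes, sorted by the difference and coloured by class. The differences run from -0.47 to 0.30, and 65 of the 71 intervals cross 0.

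**Figure D2:**
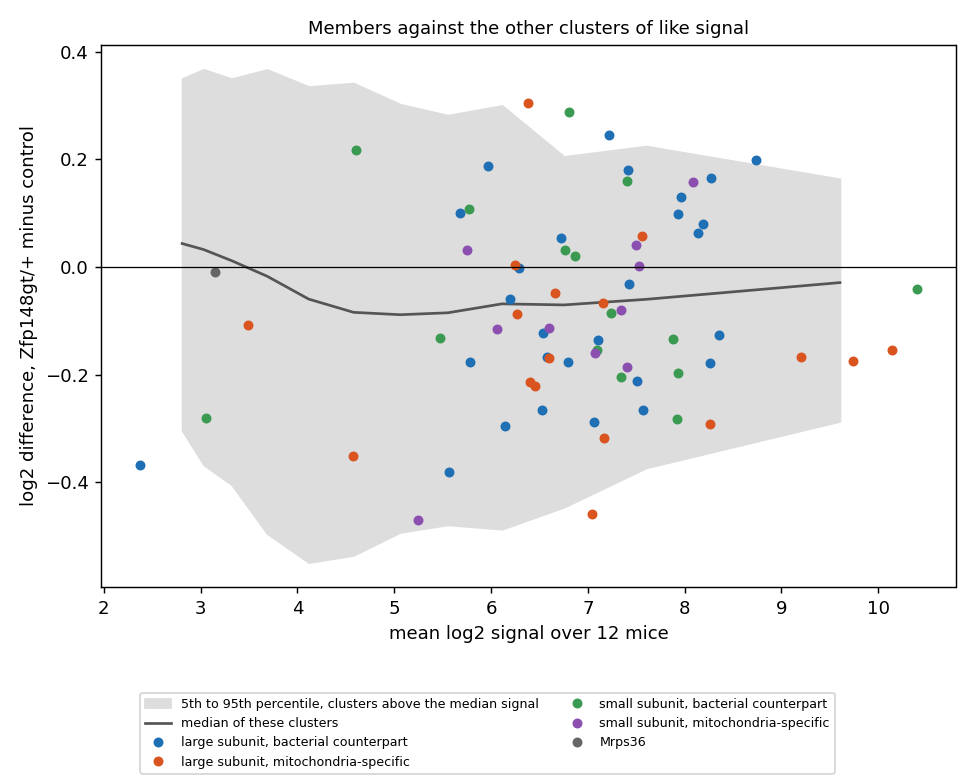
Log2 difference between the genotypes (vertical axis) against mean log2 signal over 12 mice (horizontal axis), with the 71 genes as points coloured by class. The grey band holds the 5th to 95th percentile of all rows above the median signal in groups of rising signal and the dark line their median. Most points lie inside the band, on both sides of a line that itself lies slightly below 0.

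The 6 genes with an unadjusted p under 0.05 all encode proteins of the large subunit, 4 of them proteins without a bacterial counterpart. *Mrpl45* encodes the protein at the exit of the peptide tunnel that holds the mitoribosome to the inner membrane. Its log2 signal was 4.40, 4.58, 4.25, 4.11, 4.56 and 4.48 in Zfp148gt/+ mice 783, 891, 892, 893, 897 and 911, and 4.76, 4.80, 4.82, 4.93, 4.43 and 4.75 in control mice 782, 885, 888, 889, 895 and 899. All controls but mouse 895 lay above every Zfp148gt/+ mouse. The log2 difference was -0.35 (95% confidence interval -0.59 to -0.12), which is 78.4% of the control level (limma p = 0.00671, adjusted p = 0.725; exact permutation test, two-sided, p = 0.00866).

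*Mrpl49* encodes another protein particular to the mitochondrial large subunit. Its log2 signal had a lowest value of 6.25, a median of 6.94 and a highest value of 7.16 in Zfp148gt/+ mice, and 6.94, 7.27 and 7.58 in controls. Mice 892 and 893 lay lowest, and 4 controls lay above every Zfp148gt/+ mouse. The log2 difference was -0.46 (-0.81 to -0.11), the largest of the 6 (limma adjusted p = 0.725; exact permutation p = 0.0216).

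*Mrpl37* was separated about as far as *Mrpl45*. Log2 signals of this gene were 6.69, 7.10 and 7.19 (lowest, median and highest) in Zfp148gt/+ mice and 7.11, 7.32 and 7.60 in controls, and only control mouse 899 lay within the range of the Zfp148gt/+ mice. The log2 difference was -0.32 (-0.57 to -0.07), or 80.2% of the control level (limma adjusted p = 0.725; exact permutation p = 0.0108).

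*Mrpl39* encodes a protein with a domain related to threonyl-tRNA synthetase, and the gene lies on chromosome 16, as does *Zfp148*. On the log2 scale the signal was 7.79, 8.16 and 8.33 in Zfp148gt/+ mice and 8.15, 8.38 and 8.70 in controls. The difference was -0.29 (-0.54 to -0.04), the genotypes overlapped through control mice 889 and 899, and mouse 891 was the lowest of all 12 (limma adjusted p = 0.725; exact permutation p = 0.0281).

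*Mrpl2*, whose bacterial counterpart lies near the peptidyl transferase centre, had a log2 signal of 7.19, 7.41 and 7.60 in Zfp148gt/+ mice and of 7.46, 7.58 and 7.84 in controls. Its difference was -0.21 (-0.42 to -0.01), with a limma adjusted p of 0.736 and an exact permutation p of 0.0281. *Mrpl27*, whose bacterial counterpart reaches into the same centre, was the dimmest member, with 1.82, 2.22 and 2.55 against 2.06, 2.58 and 2.94. Its signal lay below the median of all rows, its difference was -0.37 (-0.73 to -0.0011), and its exact permutation p was 0.0649. In each of the 6 genes all 6 Zfp148gt/+ mice lay below the control mean, and in none were the genotypes fully apart. The 6 genes were picked by p from these same values. All 6 Zfp148gt/+ mice also lay below the control mean in *Mrpl3*, *Mrpl11*, *Mrpl14*, *Mrpl42* and *Mrpl52*, without an unadjusted limma p under 0.05. None of the 71 members was without overlap, against 0.0829% of all rows with every Zfp148gt/+ mouse lower and 0.225% with every one higher.

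*Mrpl45*, *Mrpl49* and *Mrpl37* had an unadjusted p under 0.05 in every fit that left out 1 mouse. With the interquartile range as a covariate none of the 6 did, and their differences were -0.34 for *Mrpl45*, -0.27 for *Mrpl49*, -0.30 for *Mrpl37*, -0.04 for *Mrpl39*, -0.12 for *Mrpl2* and -0.39 for *Mrpl27*. With the fibroblast marker mean as a covariate *Mrpl45* (-0.50) and *Mrpl49* (-0.71) still had a p under 0.05. The other differences were then -0.32 for *Mrpl37*, -0.22 for *Mrpl39*, -0.23 for *Mrpl2* and -0.26 for *Mrpl27*, so that those of *Mrpl37* and *Mrpl2* kept their size without a p under 0.05.

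**Figure D3:**
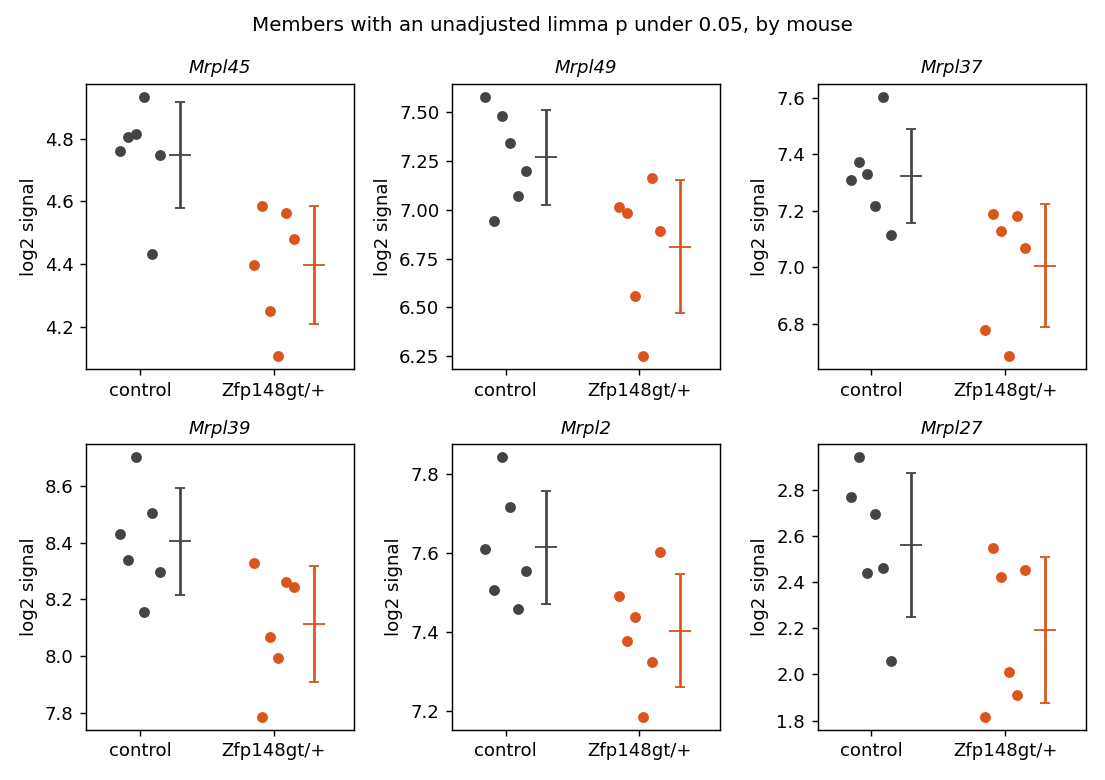
Log2 signal (vertical axis) of the 6 genes with an unadjusted limma p under 0.05, 1 point per mouse, with the mean and SD of 6 mice beside the points. The Zfp148gt/+ points lie lower in each panel and overlap the controls in each, by 1 control in *Mrpl45* and in *Mrpl37*.

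The start regions of the 4 mitochondria-specific genes of this group are shown because they differ in the short motifs through which nuclear genes of mitochondrial proteins are commonly regulated. Each window, from RefSeq on build GRCm38.p6, runs 5′ to 3′ on the strand of the gene from 250 bases before its start to 50 after it. Capitals mark matches, on either strand, to the NRF1 core GCATGCGC, the ETS core CCGGAAG (bound by GABP), the YY1 core AAGATGG, the GC box GGGCGG, and CCCTCCCC, a C-rich run of the kind that ZBP-89 is known to bind.
*Mrpl45*, chr11:97315466-97315765, plus strand: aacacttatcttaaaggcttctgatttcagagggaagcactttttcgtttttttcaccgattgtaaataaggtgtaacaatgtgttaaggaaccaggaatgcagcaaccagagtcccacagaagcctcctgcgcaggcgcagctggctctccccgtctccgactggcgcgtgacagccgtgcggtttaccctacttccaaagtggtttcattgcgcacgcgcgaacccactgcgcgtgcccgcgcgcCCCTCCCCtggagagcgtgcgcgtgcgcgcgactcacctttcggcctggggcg
*Mrpl49*, chr19:6057706-6058005, minus strand: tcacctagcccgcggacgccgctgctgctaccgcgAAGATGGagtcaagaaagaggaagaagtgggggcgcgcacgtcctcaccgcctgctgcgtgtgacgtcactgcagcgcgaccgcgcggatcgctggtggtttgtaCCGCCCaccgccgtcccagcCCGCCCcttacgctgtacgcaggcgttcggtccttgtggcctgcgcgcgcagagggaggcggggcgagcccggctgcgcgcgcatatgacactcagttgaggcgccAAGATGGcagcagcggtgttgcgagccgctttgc
*Mrpl37*, chr4:107066817-107067116, minus strand: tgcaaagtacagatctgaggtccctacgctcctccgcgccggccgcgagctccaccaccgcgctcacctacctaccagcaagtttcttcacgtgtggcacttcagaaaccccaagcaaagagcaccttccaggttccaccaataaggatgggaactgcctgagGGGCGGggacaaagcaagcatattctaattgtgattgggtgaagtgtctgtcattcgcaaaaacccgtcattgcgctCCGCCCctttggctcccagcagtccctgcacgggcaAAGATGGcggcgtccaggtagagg
*Mrpl39*, chr16:84735195-84735494, minus strand: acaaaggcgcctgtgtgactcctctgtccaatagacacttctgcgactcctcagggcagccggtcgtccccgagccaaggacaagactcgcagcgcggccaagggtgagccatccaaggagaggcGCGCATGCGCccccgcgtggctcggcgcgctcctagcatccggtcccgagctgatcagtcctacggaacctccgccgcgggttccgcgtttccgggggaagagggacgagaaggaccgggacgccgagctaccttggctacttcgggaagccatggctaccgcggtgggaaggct

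The *Mrpl45* window held the C-rich run once and none of the other motifs. The *Mrpl49* window held the YY1 core and the GC box 2 times each, and the *Mrpl37* window the YY1 core 1 time and the GC box 2 times. In *Mrpl39* the NRF1 core matched on both strands at 1 place, since the motif overlaps its own complement there. The windows of *Mrpl2* (2 GC boxes in the first of 3 windows) and *Mrpl27* (1 ETS core) held a single kind of motif. A match describes letters and not a bound site.

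Of the 71 genes 62 had such a window, 68 windows in all. The ETS core stood in 33.8% of them, against 8.86% of all 32851 windows of the RefSeq table and 11.6% of the 21262 windows of coding genes. The YY1 core stood in 19.1%, against 6.34% and 6.24%, and the NRF1 core in 10.3%, against 2.71% and 3.51%. The GC box was found in 54.4% (35.7% and 46.2%), and the C-rich run in 5.88% (10.8% and 12.3%). The 4 genes with the C-rich run were *Mrpl10*, *Mrpl14*, *Mrpl23* and *Mrpl45*, with differences of 0.10, -0.18, 0.08 and -0.35, so they lay on both sides of 0. The 7 genes with the NRF1 core had a median difference of -0.27, against -0.12 for the other 55. These 7 were *Mrpl22* (-0.30), *Mrpl39* (-0.29), *Mrpl17* (-0.29), *Mrpl32* (-0.27), *Mrpl10* (0.10), *Mrps18b* (0.16) and *Mrpl9* (0.19). For the ETS core the medians with and without were -0.12 and -0.12, and for the YY1 core -0.07 and -0.12. Of the 62 genes 13 held none of the 5 motifs.

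The genes were then taken by the place of their protein in the particle. The large subunit proteins with a bacterial counterpart numbered 28, of which 17 had a difference below 0 and 11 above, with a median of -0.09. Those of the stalk, which recruits the translation factors, gave 0.10 (-0.26 to 0.45) for *Mrpl10*, -0.13 (-0.37 to 0.10) for *Mrpl11* and 0.06 (-0.15 to 0.28) for *Mrpl12*. For *Mrpl11* all 6 Zfp148gt/+ mice lay below the control mean, between 6.94 and 7.13, inside a wider control range of 6.82 to 7.44. *Mrpl3*, near the peptidyl transferase centre, gave -0.17 (-0.45 to 0.12), and *Mrpl4*, which lines the exit tunnel, 0.05 (-0.22 to 0.33). The intervals of these 5 genes all included 0, and the second rows of *Mrpl10* and *Mrpl12* gave -0.03 and -0.05.

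*Mrpl1* encodes the counterpart of the bacterial protein at the exit of the spent tRNA. Its log2 signal was 4.66, 5.42 and 5.84 (lowest, median, highest) in Zfp148gt/+ mice and 5.54, 5.71 and 6.25 in controls. The difference was -0.38 (-0.78 to 0.02), and mouse 891 at the bottom and control mouse 885 at the top stood away from the rest (exact permutation p = 0.0866; limma adjusted p = 0.741). Without mouse 891 it was -0.24. *Mrpl15*, an assembly protein of the bacterial large subunit by its counterpart, gave 0.24 (-0.25 to 0.73), with ranges of 6.74 to 7.82 and 6.49 to 7.75.

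Of the 17 mitochondria-specific proteins of the large subunit 14 lay below 0 and 3 above, with a median of -0.17. Their mean log2 signal was 6.95 ± 0.13 (SD, n = 6, range 6.80 to 7.18) in Zfp148gt/+ mice and 7.09 ± 0.08 (n = 6, range 7.03 to 7.21) in controls. All Zfp148gt/+ mice but mouse 897 lay below every control. With the interquartile range as a covariate the median difference was -0.06, with 12 of the 17 below 0. Whether this class differed from the others was not tested.

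The brightest of them, *Mrpl52*, had the smallest spread of all members. The log2 signal was 9.78, 10.10 and 10.19 in Zfp148gt/+ mice and 10.12, 10.21 and 10.30 in controls, and 5 controls lay above every Zfp148gt/+ mouse. The difference was -0.15 (-0.34 to 0.03), with an unadjusted exact permutation p of 0.0152, an unadjusted limma p of 0.0914 and a limma adjusted p of 0.752. Without mouse 891, the lowest, the difference was -0.10. *Mrpl42* gave -0.17 (-0.40 to 0.06), from 9.30, 9.72 and 9.80 against 9.60, 9.85 and 9.98, with mouse 893 far below the others. *Mrpl40* had the largest positive difference of all members, 0.30 (-0.04 to 0.65). The log2 signal was 6.25, 6.47 and 6.91 in Zfp148gt/+ mice and 5.83, 6.18 and 6.63 in controls, all Zfp148gt/+ mice lay above the control mean, and the exact permutation p was 0.0974. It lies on chromosome 16, like *Mrpl39*, whose difference had the other sign.

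**Figure D4:**
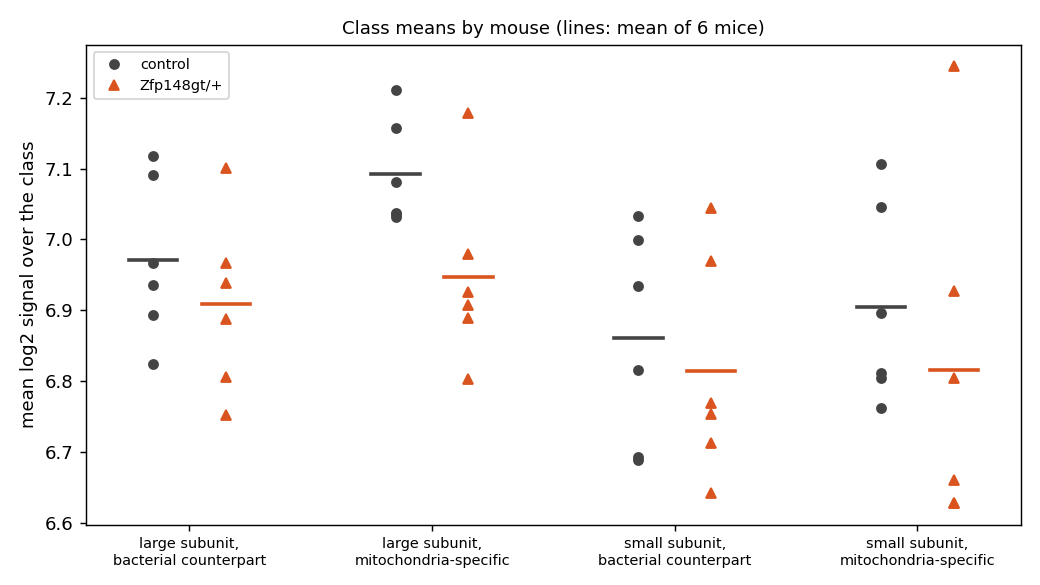
Mean log2 signal over the genes of a class (vertical axis) by mouse, for the 4 classes, with the mean of 6 mice as a line. Genotypes overlap in every class, and in the mitochondria-specific large subunit class by 1 Zfp148gt/+ mouse, which lies at 7.18.

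The small subunit gave no gene with an unadjusted p under 0.05. Its 15 proteins with a bacterial counterpart had a median difference of -0.09, with 9 below and 6 above 0, and its 10 mitochondria-specific proteins -0.10, with 6 below and 4 above. *Mrps12*, of the decoding centre, gave 0.16 (-0.13 to 0.45), and *Mrps5*, at the entry of the messenger, -0.09 (-0.61 to 0.44). The spread within controls was wide for *Mrps5*, from 6.53 to 7.96, and its second row gave -0.45 (-1.06 to 0.16). *Mrps7*, whose bacterial counterpart starts the assembly of the head, gave 0.29 (-0.05 to 0.63), from 6.57, 6.90 and 7.504 against 6.32, 6.64 and 7.002, with mouse 783 highest (exact permutation p = 0.115). *Mrps2* gave 0.22 (-0.18 to 0.61).

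*Mrps21* had the smallest p of the small subunit. Values on the log2 scale were 7.29, 7.78 and 8.21 in Zfp148gt/+ mice and 7.86, 8.08 and 8.37 in controls, 4 Zfp148gt/+ mice lay below every control, and the difference was -0.28 (-0.59 to 0.03; exact permutation p = 0.0714; limma adjusted p = 0.741). *Mrps27*, a pentatricopeptide repeat protein, had the lowest difference of all 71 in the fit of all mice and also one of the widest spreads, with an SD of 0.75 in Zfp148gt/+ mice against 0.36 in controls. Its values of 3.75, 5.13 and 5.87 against 4.83, 5.54 and 5.89 gave -0.47 (-1.12 to 0.18; exact permutation p = 0.195), with mouse 893 as the lowest. Without that mouse the difference was -0.22, smaller in size than the -0.35 of *Mrpl49* in the same fit, and with the interquartile range as a covariate it was -0.06. *Mrps16*, the brightest member, gave -0.04 (-0.28 to 0.20), and the dim *Mrps14* -0.28 (-1.07 to 0.51).

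The mammalian relatives of bacterial S18 are encoded by separate genes, and a mitoribosome holds their products at different places, *Mrps18a* in the large subunit and *Mrps18b* and *Mrps18c* in the small one. They gave -0.07 (-0.39 to 0.25), 0.16 (-0.15 to 0.46) and -0.13 (-0.38 to 0.12). *Mrps18b* and *Mrps18c* each had a second row, and these gave -0.17 and 0.11, so the sign depended on the row. Among the 9 genes with 2 rows the rows had the same sign in 3 (*Mrpl36*, *Mrpl47* and *Mrps5*) and opposite signs in 6. *Mrps36* is now known as a subunit of the 2-oxoglutarate dehydrogenase complex and not of the ribosome. Its difference was -0.01 (-0.60 to 0.58) at a signal of 3.14 ± 0.48 and 3.15 ± 0.57 (SD, n = 6 each).

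The mice of 1 genotype differed from each other by more than the genotypes did. The mean log2 signal over the 71 genes was 6.83 ± 0.13 (SD, n = 6, range 6.68 to 7.05) in Zfp148gt/+ mice and 6.91 ± 0.10 (n = 6, range 6.79 to 7.05) in controls. Of the 71 genes, 57 lay below their own 12-mouse mean in Zfp148gt/+ mouse 893, 53 in 892, 48 in 911, 44 in 891, 29 in 783 and 18 in 897. In controls the numbers were 44 in mouse 899, 40 in 895, 39 in 885, 32 in 889, 20 in 888 and 14 in 782. The genes thus moved together from mouse to mouse, high in Zfp148gt/+ mouse 897 and control mice 782 and 888, and low in 892 and 893. For all rows above the median signal the share below the own mean was between 43.2% and 56.5% in every mouse. The lists most like them had a partly similar order of mice. The mean over 79 nuclear subunits of the respiratory chain and ATP synthase was highest in control mice 782 (8.49) and 888 (8.41) and lowest in mice 892 and 893 (8.16 each), and that over 13 mitochondrial translation factors was lowest in 892 (5.47) and 893 (5.63). Mouse 897, highest for the members, had 8.35 in the respiratory list, below the 8.37 of mouse 911. The mean over 19 mitoribosome assembly factors was lowest in control mouse 889 (5.12), followed by mice 893 (5.16) and 892 (5.18). The interquartile range of the array was 2.82, 2.71, 2.69, 2.71, 2.76 and 2.93 in Zfp148gt/+ mice 783, 891, 892, 893, 897 and 911. This range differed between the genotypes, so the fit with it as a covariate cannot divide array spread from genotype. The part of the range in the members' values was not tested.

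**Figure D5:**
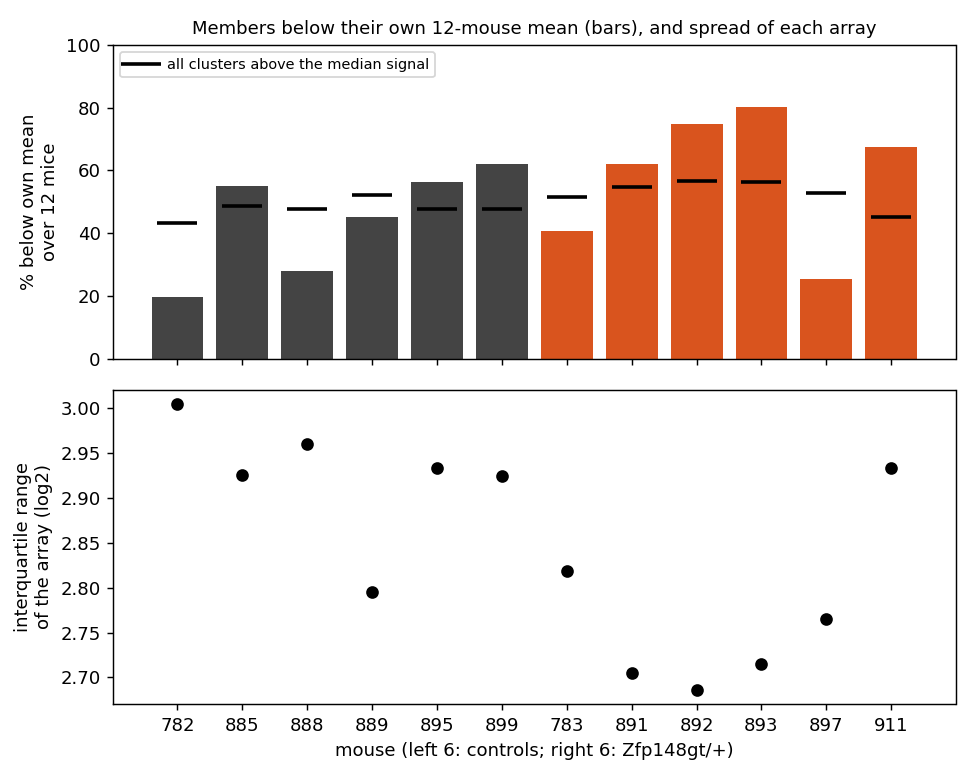
Upper panel, percent of the 71 genes below their own mean over 12 mice (bars, vertical axis) in each mouse (horizontal axis), with the percent of all rows above the median signal as a dash. Lower panel, interquartile range of each array. The bars run from 19.7% in control mouse 782 to 80.3% in Zfp148gt/+ mouse 893, while the dashes stay between 43.2% and 56.5%.

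Other genes that the mitoribosome needs were described in the same way, and none of these lists held a gene that passed after adjustment. For comparison, 58.4% of all rows above the median signal lay below 0. At an unadjusted limma p under 0.05, 5.08% of them were lower and 2.41% higher. Of the ribosomal proteins that carry other symbols 3 were measured, of which *Dap3*, a small subunit GTP-binding protein, had the smallest p at -0.19 (-0.44 to 0.06). Of 13 translation factors 10 lay below 0 and 3 above, with a median of -0.19 and 0 at an unadjusted limma p under 0.05. *Mtfmt*, which formylates the initiator tRNA, gave -0.50 (-1.02 to 0.02), with a lowest value of 3.72 in mouse 892, without which it was -0.29. With the fibroblast marker mean as a covariate it was -0.92, at an unadjusted p under 0.05.

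Of 19 genes for the charging of mitochondrial tRNAs 15 lay below 0 and 4 above, with a median of -0.11. *Vars2*, the mitochondrial valyl-tRNA synthetase, went the other way. Its log2 signal was 4.79, 5.17, 5.15, 4.30, 4.38 and 4.26 in Zfp148gt/+ mice 783, 891, 892, 893, 897 and 911 and 3.94, 4.24, 4.19, 3.62, 4.03 and 4.28 in control mice 782, 885, 888, 889, 895 and 899. Only mouse 911 lay below the highest control, and the difference was 0.63 (0.23 to 1.02; limma adjusted p = 0.725), the only 1 at an unadjusted p under 0.05 in this list.

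Of 19 assembly factors 10 lay below 0 and 9 above, with a median of -0.02, and 2 were lower at an unadjusted limma p under 0.05. These were *Dhx30*, an RNA helicase, at -0.36 (-0.65 to -0.07), and *Mrm3*, a methyltransferase of the large ribosomal RNA, at -0.72 (-1.36 to -0.07), with a value of 1.86 in mouse 893 that lay far below the rest. The 1.86 of mouse 893 also lay below the median signal of all rows, 2.71. Without mouse 893 *Mrm3* gave -0.45, still at an unadjusted p under 0.05. With the interquartile range as a covariate *Mrm3* gave -0.17 and *Dhx30* -0.20, and both calls were lost. Of 11 genes for the upkeep and transcription of mitochondrial DNA 9 lay below 0, with a median of -0.12. *Mterf2*, a transcription termination factor relative, was the 1 with an unadjusted p under 0.05, at -0.61 (-1.07 to -0.14). For this dim gene 4 Zfp148gt/+ mice between 2.22 and 2.37 lay below every control and below the median signal of all rows. With the interquartile range as a covariate its difference was -0.18 and the call was lost.

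A list of regulators of mitochondrial genes held 9 genes, namely *Nrf1*, *Yy1*, the GABP subunits *Gabpa* and *Gabpb1*, the coactivators *Ppargc1a*, *Ppargc1b* and *Pprc1*, *Esrra* and *Myc*. Of these 6 lay below 0 and 3 above, with a median of -0.23. *Pprc1*, a coactivator of the PGC-1 family, gave -0.47 (-0.80 to -0.14; limma adjusted p = 0.725), with 6.04, 6.21, 7.07, 6.20, 6.58 and 6.32 in Zfp148gt/+ mice 783, 891, 892, 893, 897 and 911 and 6.87, 6.88, 7.09, 6.84, 6.72 and 6.84 in control mice 782, 885, 888, 889, 895 and 899. All Zfp148gt/+ mice except 892 lay below every control. *Nrf1*, the factor that binds the NRF1 core, gave -0.37 (-0.69 to -0.05; limma adjusted p = 0.725), or -0.16 with the interquartile range as a covariate. Both had an unadjusted p under 0.05, and with the fibroblast marker mean as a covariate, at -0.31 for *Pprc1* and -0.28 for *Nrf1*, neither did. *Ppargc1a* gave -0.47 (-0.95 to 0.02), *Gabpa* -0.11 (-0.30 to 0.08) and *Yy1* 0.16 (-0.05 to 0.37). The mean signal of the 9 was 5.80 to 6.10 in Zfp148gt/+ mice and 6.13 to 6.27 in controls, without overlap. The list was chosen with earlier results of these data known, and this mean was not tested. Of all single rows 0.0829% were lower without overlap, and no such share was computed for means of lists. The order of mice was only partly that of the members. Control mouse 782, high for the members, was highest for the 9 (6.27). Mouse 783 was lowest (5.80), while mice 892 and 893, lowest for the members, had 6.05 and 6.06. Over all rows above the median signal the mean was 5.13 to 5.23 and 5.17 to 5.24, also lower on average in Zfp148gt/+ mice (5.16 against 5.21).

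The cytosolic ribosomal proteins served as a comparison with the other ribosome of the cell. Of 58 measured genes 35 lay below 0 and 23 above, with a median of -0.01. *Rps13* was the only 1 with an unadjusted p under 0.05, at 9.47, 9.31 and 9.68 in Zfp148gt/+ mice 783, 897 and 911 and between 3.66 and 4.31 in all other mice. Of 79 nuclear subunits of the respiratory chain and ATP synthase, the partners of the mitoribosome's products, 56 lay below 0 and 23 above, with a median of -0.05. There 5 were lower (6.33%) and 0 higher at an unadjusted limma p under 0.05, against 5.08% and 2.41% of rows above the median signal. *Ndufa7* of complex I had the smallest p and gave -0.24 (-0.43 to -0.05), or -0.07 with the interquartile range as a covariate. The differences between these lists and the mitoribosome were not tested.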

How the data were processed

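Crypt-enriched tissue of 6 Zfp148gt/+APCMin/+ and 6 Zfp148+/+APCMin/+ mice was profiled on 1 array per mouse. The authors normalized the arrays by RMA in Affymetrix Expression Console and deposited log2 values per transcript cluster, here called row. Base 2 was read from the values themselves, which run from 0.85 to 13.24. The software version and the build behind the array annotation were not given in the sources used here. RMA shrinks differences of dim probe sets, and, as arrays have no read depth, the number of mice sets the precision. Gene symbols came from the array annotation, and promoter windows, matched by symbol, from RefSeq (GRCm38.p6). Littermates were controls, but the labels give no litter, so mice were treated as independent.

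Genotypes were compared in R 4.3.3 with limma 3.58.1 (lmFit, then eBayes), without covariates or a filter on dim rows, with Benjamini-Hochberg adjustment over all 33793 rows, a threshold of 0.05 and 95% confidence intervals. Single genes were also compared by exact two-sided permutation tests over every assignment into 6 and 6, unadjusted. Tables were joined with pandas 2.3.3 and drawn with matplotlib 3.10.9 under Python 3.11.15. The mitoribosomal classes and the lists of related genes were written from textbook knowledge, and members and lists were chosen with earlier results of these data known. By rule the text names members with an unadjusted p under 0.05, the 4 largest differences in each direction, the 3 brightest and 3 dimmest, the smallest p of each class and related list, and a set of genes by role. Other genes were named after their values were seen. The alternatives tried were median centring, another quantile normalization, array weights, brighter rows only, a robust eBayes with a trend, averaging a gene's rows, covariates for array spread, fibroblast and villus markers, the ratio of linear means, and each mouse left out in turn.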

Additional observations from a re-analysis of the deposited data

Results flagged for a closer look

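In 80 groups of 6 mice, the named genes and the mean over the mitochondrial ribosomal protein genes in each genotype, a mouse far from the other 5 was found 4 times. Chance gives about 1 in 20, so this count was no more than chance gives. Control mouse 885 had a log2 signal of 6.248 for *Mrpl1*, against 5.54 to 5.77 in the other controls. Zfp148gt/+ mouse 893 had 9.299 for *Mrpl42*, against 9.63 to 9.80. Control mouse 895 had 4.432 for *Mrpl45*, against 4.75 to 4.93, and is the 1 control that overlaps the Zfp148gt/+ mice in that gene. Zfp148gt/+ mouse 891 had 9.782 for *Mrpl52*, against 10.07 to 10.19.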

How the results depend on the processing

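Across 10 alternative settings and 12 fits without 1 mouse, no member passed the adjusted threshold and the median log2 difference stayed below 0, at -0.19 to -0.02 and -0.14 to -0.06. The count of lower genes at an unadjusted p under 0.05, 6, was 11 with arrays centred on their medians and 1 with the interquartile range as a covariate, and 3 to 9 without 1 mouse: 3 without mouse 893, 4 without control mouse 888 and 9 without mouse 897. The count of higher genes, 0, was 3 after another quantile normalization and 0 to 1 without 1 mouse. Centring moved the median of all rows to -0.02. The cause of these shifts was not tested. The ratio of linear means gives no limma test.

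Of 28 named members 20 kept their sign in every setting and 8 did not. *Mrpl10* turned to -0.17 with the interquartile range and to -0.0933 with fibroblast markers as a covariate, and *Mrps36* to 0.41 and 0.53. With fibroblast markers *Mrpl12* turned to -0.0246, *Mrpl4* to -0.20 and *Mrps16* to 0.12. *Mrps18b* turned to -0.0076 as the mean of its rows. Without 1 mouse *Mrpl4* ran from -0.0351 to 0.11, *Mrps16* from -0.12 to 0.0094, *Mrps18a* from -0.15 to 0.0361, *Mrps36* from -0.17 to 0.14 and *Mrps5* from -0.24 to 0.04997. No analysis paired by litter was possible because the labels give no litter.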
